A study of Mus musculus with 12 samples.

Results

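The potassium channel genes of mouse dorsal hippocampus were described from poly(A) RNA sequencing of 12 mice. Members were taken as the rows whose symbol starts with Kcn and whose raw count averaged 10 or more over all mice, without Kcnj10, Kcnj16, Kcnj13, Kcnj8 and Kcne2, which were left out by name. Of 98 Kcn symbols among 24985 genes, 79 reached that mean and 74 remained after the 5 were left out. Nearest above the limit were Kcne4, with a mean raw count of 11.4, and Kcnh6, with 14.3. Kcnk5, at 9, and Kcnh8, at 7.08, were the nearest below it. All 74 passed the filter on low counts and were tested among 14742 genes. They fell into 35 voltage-gated (Kv) pore genes, 7 genes of the calcium-, sodium- or pH-activated class (KCa) and 8 inward rectifiers (Kir). The rest were 9 pore genes of the K2P class, 12 auxiliary subunits and 3 noncoding transcripts with Kcn symbols.

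C57Bl6/J wild-type mice received a unilateral intracranial injection of PBS or of 1 µg AD Tau, pathological tau purified from brains of people with Alzheimer's disease, at 6 months of age. They were fed a control diet (labelled standard chow, TestDiet, and given in the methods as matched in calories) or LabDiet 5001 with 5% sodium acetate added, which gave 4 groups of 3 mice named by injection and diet (PBS control or PBS acetate, and Tau control or Tau acetate). All mice, controls included, were injected and memory-tested, and the right dorsal hippocampus was taken the day after remote recall, 6 months or more after injection. The study asked how elevated acetate and pathological tau interact, with a focus on memory.

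Total counts ran from 12983233 to 20218340 per mouse (median 15346495), and the common biological coefficient of variation was 7.25%. The mice are labelled male, but Xist was counted in every mouse (13583 to 25991 reads) and the 4 Y chromosome genes examined had 0 counts in all mice. These counts went against the label in every group alike. Markers of hippocampal neurons were abundant, and the summed counts per 1000000 reads (CPM) of Slc17a7, Neurod6 and Prox1 ranged from 1792 to 2286 over all mice.

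Potassium channels set the resting potential of neurons, shape and end the action potential, and limit repetitive firing. Kv channels open on depolarisation, and KCa channels, as grouped here, answer to intracellular calcium, sodium or pH. Kir channels pass current near rest and include the G protein-gated channels that mediate slow inhibition, and K2P channels carry background leak. In the hippocampus they are known for dendritic A-type current, the M-current that damps bursts, and slow inhibitory potentials. Kcnh3 encodes an Elk-type Kv pore largely restricted to the forebrain, Kcnj9 a G protein-gated Kir subunit (GIRK), and Kcnj2 a strongly rectifying Kir pore. On GRCm38 they lie at chr15:99224861-99242817, chr1:172320501-172329318 and chr11:111066164-111076821, and their counts are of exonic reads.

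Upstream sequence is shown for Kcnj9 and Kcnj2, which had RefSeq promoter windows, because their levels differed in opposite directions in the diet comparison described next. Each run is the 250 bases before the annotated start on the gene's own strand, from RefSeq on GRCm38.p6, with matched motifs in capitals. The Kcnj9 run is at chr1:172329323-172329572 on the minus strand and the Kcnj2 run at chr11:111065914-111066163 on the plus strand.
Kcnj9: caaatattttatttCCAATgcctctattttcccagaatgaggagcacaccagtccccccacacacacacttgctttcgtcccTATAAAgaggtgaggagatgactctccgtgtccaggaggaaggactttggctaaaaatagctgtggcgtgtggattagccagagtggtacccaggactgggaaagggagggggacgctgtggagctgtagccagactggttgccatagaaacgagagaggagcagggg
Kcnj2: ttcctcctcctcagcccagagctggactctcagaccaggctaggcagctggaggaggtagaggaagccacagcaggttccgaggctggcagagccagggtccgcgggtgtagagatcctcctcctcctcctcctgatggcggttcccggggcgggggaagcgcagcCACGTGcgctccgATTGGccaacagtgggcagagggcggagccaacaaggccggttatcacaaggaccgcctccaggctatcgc
In Kcnj9 the capitals mark CCAAT, starting at position -236 from the start, and TATAAA at -168. In Kcnj2 they mark the E-box CACGTG at -84 and, on the opposite strand, CCAAT (printed as ATTGG) at -71. RefSeq windows were matched for 52 members, 12 of them among the 20 called below. On either strand, CCAAT was found in 20 of the 52 genes and in 33.8% of 32851 promoter windows, TATAAA in 1 gene and 12.4% of windows, and CACGTG in 4 genes and 6.02% of windows. The cyclic AMP response element TGACGTCA was in 0 of the 52 and 1.55% of windows, and the EGR site GCGTGGGCG in 0 and 0.536%. A gene counted if any of its windows matched, whereas the percentages are over single windows, so the shares are in unlike units. None of these motifs overlapped another in the runs printed, and a match is a description of letters only.

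Levels were compared between genes as CPM per kb of exonic length, averaged over all 12 mice. The auxiliary subunit Kcnab2, a cytoplasmic beta subunit of Kv channels, had the highest level at 193 CPM per kb. It was followed by Kcnip2, a calcium-binding partner of the A-type Kv pores, at 67.3 and by the axonal Kv pore Kcna1 at 61.9. Among Kir genes the GIRK subunit Kcnj3 stood at 44.5 and Kcnj4, a strong rectifier, at 38.0, with Kcnj9 next at 23.0. The leak channel Kcnk1 led the K2P class at 44.4, followed by the mechanically gated Kcnk2 at 12.3 and the THIK-type subunit Kcnk12 at 4.82. The KCa class was low throughout, with Kcnn2, a small-conductance channel, at 7.45, the large-conductance (BK) pore Kcnma1 at 6.75 and the sodium-activated Kcnt2 at 5.04. Kcnh3 stood at 18.6 CPM per kb, in the upper part of the Kv class, and Kcnj2 at 3.63. Kcnh6, an Erg-type pore, had the lowest level of any member at 0.257.

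**Figure D1:**
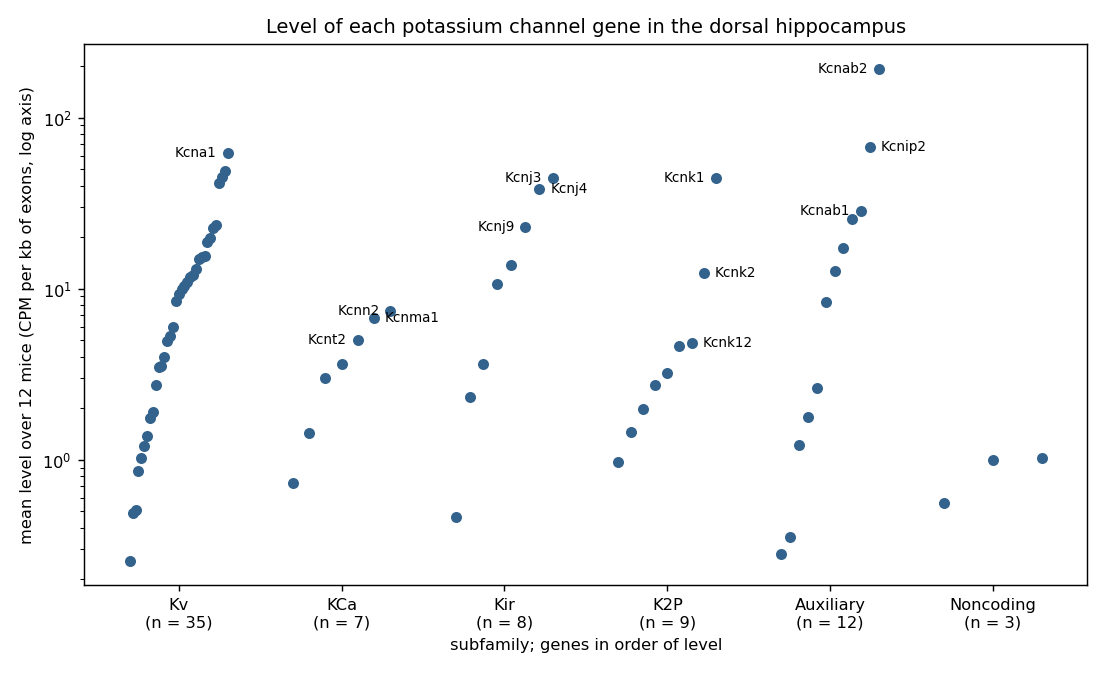
Level of each of the 74 genes as mean CPM per kb of exonic length over all 12 mice (log axis), grouped by subfamily, with 1 point per gene. Levels span from 0.257 (Kcnh6) to 193 (Kcnab2), and the KCa genes all lie at or below 7.45.

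On the acetate diet without tau, 10 channel genes rose and 10 fell. In PBS-injected mice 20 of 74 members (27.0%) passed an adjusted p below 0.1 in edgeR's quasi-likelihood test, against 8.84% of all genes tested (3.99% higher and 4.85% lower) and 10.4% of the 10186 genes at or above the lower quartile of the members' CPM. Those that rose were Kcnh3, which had the smallest adjusted p of the 20, Kcnh7, Kcnk3, Kcnk9, Kcnk12, Kcnj9, Kcnt1, Kcna3, Kcnb2 and Kcnab3. Those that fell were Kcna1, Kcnc1, Kcnc2, Kcnv1, Kcnh1, Kcnq5, Kcnj2, Kcnk4, Kcnmb1 and Kcnmb4. By class the calls were 10 of 35 Kv genes (4 higher, 6 lower), 1 of 7 KCa genes, 2 of 8 Kir genes, 4 of 9 K2P genes and 3 of 12 auxiliary genes. At an unadjusted p below 0.05 there were 28, against 20.8% of all genes, and DESeq2 called 20, where it called 9.01% of genes. The 2 diet groups did not overlap for 27 members (36.5%), against 26.3% of all genes. The median log2 fold change over the 74 was 0.05 and over all genes 0.00, while the median of its absolute value was 0.20 against 0.12. The count rested on single mice: it was 9 without PBS control mouse 1, 6 without PBS control mouse 3, 6 without PBS acetate mouse 1 and 1 without PBS acetate mouse 2, when Kcnh3 alone remained. At an adjusted p below 0.05 it was 9. The share of all genes called in each of these fits is not given here. The moves therefore cannot be read as particular to the channel genes. Among the PBS acetate mice, mouse 3 lay nearest the controls in every called gene but Kcnk12, Kcnj2 and Kcna3.

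**Figure D2:**
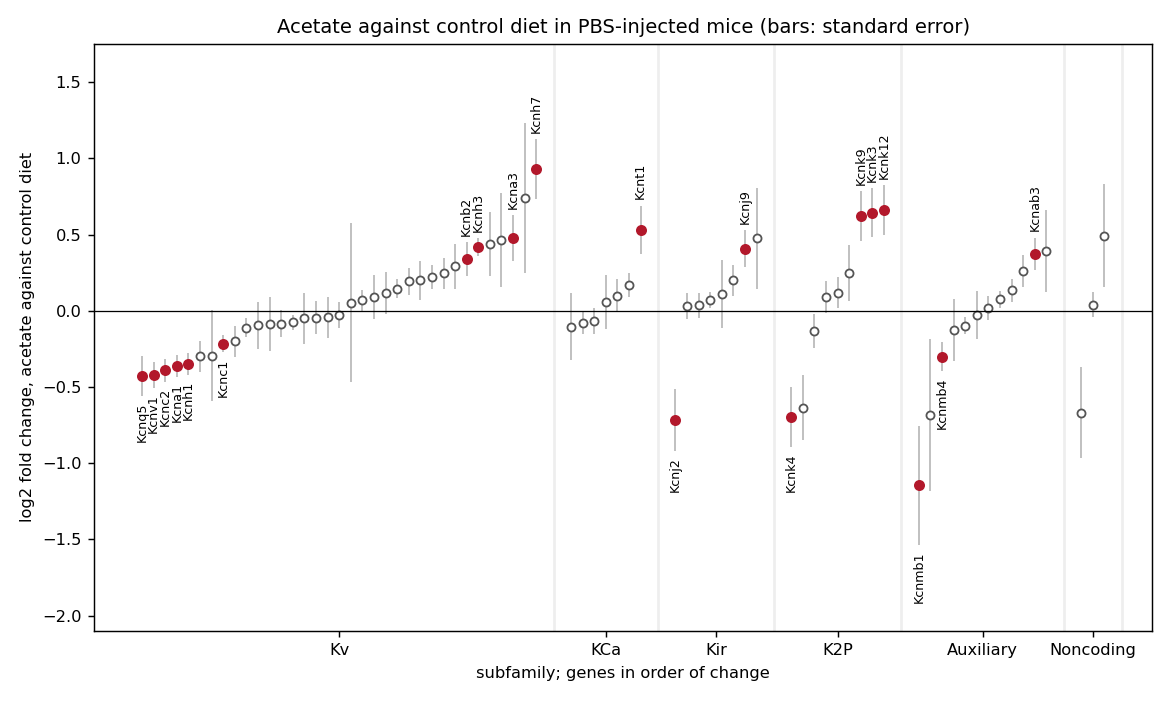
Log2 fold change with the acetate diet among PBS-injected mice for every member, with bars of 1 SE, ordered by subfamily and size, and the 20 called members coloured. Calls run from -1.15 (Kcnmb1) to 0.93 (Kcnh7), 10 on each side of 0.

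Within the Kcnh family, the Elk-type Kcnh3 and the Erg-type Kcnh7 rose and the Eag-type Kcnh1 fell. Kcnh3 CPM was 87.2, 93.4 and 90.1 in PBS control mice and 119, 124 and 118 in PBS acetate mice. The groups were separated by a gap several times wider than either group's own range. The mean rose from 90.2 ± 3.12 to 120.5 ± 3.27 CPM (SD, n = 3), and the log2 fold change was 0.42 (SE 0.06, adjusted p 0.00448). It was the only member called without each of the 12 mice in turn, with log2 fold changes from 0.40 to 0.44 and adjusted p from 0.00186 to 0.0520. Kcnh7 CPM was 13.7, 17.7 and 10.4 in PBS control and 28.3, 30.8 and 19.8 in PBS acetate mice. The lowest acetate mouse, number 3, lay just above the highest control. Its log2 fold change was 0.93 (SE 0.20, adjusted p 0.0346). Kcnh1, whose product is a slowly activating Eag pore, measured 67.9, 76.8 and 79.8 CPM in PBS control and 53.9, 58.8 and 63.4 in PBS acetate mice, with no overlap, and fell by 0.35 on the log2 scale (SE 0.07, adjusted p 0.02). The 4 further Kcnh members were not called, and their log2 fold changes ranged from -0.10 for Kcnh5 to 0.44 for the low-count Elk gene Kcnh4 (adjusted p 0.247).

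Among the Shaker-type genes the axonal pore Kcna1 fell and Kcna3 rose. Kcna1 CPM was 350.3, 321 and 349 in PBS control and 255, 255 and 284 in PBS acetate mice. The highest acetate mouse stayed below the lowest control, and the log2 fold change was -0.36 (SE 0.07, adjusted p 0.0164). Kcna3, a low-level pore better known from lymphocytes and microglia, had 4.89, 5.25 and 4.94 CPM against 6.46, 7.74 and 6.71. The groups did not overlap, with a log2 fold change of 0.48 (SE 0.15, adjusted p 0.0789). Kcna2, which assembles with Kcna1 in axons, had a log2 fold change of -0.11 (adjusted p 0.305), and Kcna4, an A-type pore, one of 0.19 (adjusted p 0.209).

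In the Kv subfamily that supports fast spiking, Kcnc1 and Kcnc2 fell, and Kcnc4 did not pass the test. Kcnc2 CPM was 129.6, 128 and 114 in PBS control and 96.7, 87.1 and 99.3 in PBS acetate mice, with every acetate mouse below every control. Its log2 fold change of -0.39 had an SE of 0.07 and an adjusted p of 0.0146. Kcnc1 CPM was 226, 249 and 235 against 198, 197 and 216, again without overlap. The log2 fold change was the smallest of the 20 at -0.22 (SE 0.06, adjusted p 0.0407). Kcnc4 gave 0.29 (SE 0.15, adjusted p 0.297), with PBS control mouse 1 at 35.9 CPM against 57.1 and 59.7 in the other controls. Markers of inhibitory neurons, where Kcnc1 and Kcnc2 are abundant, summed to 658 to 700 CPM in PBS control and 734 to 813 in PBS acetate mice. Of these 6 markers 5 lay above 0 and 0 were called. The largest value was that of Sst (log2 fold change 0.64, adjusted p 0.122). Pvalb was the marker below 0 (log2 fold change -0.08, adjusted p 0.655).

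The silent subunit Kcnv1, which forms no channel alone and modifies delayed rectifier pores, fell, and the delayed rectifier pore Kcnb2 rose. Kcnv1 CPM was 68.1, 60.9 and 65.2 in PBS control and 45.8, 43.9 and 55.8 in PBS acetate mice. Acetate mouse 3 lay nearest the controls without reaching them, and the log2 fold change was -0.42 (SE 0.09, adjusted p 0.0195). Kcnb2 CPM was 12.6, 13.7 and 12.5 against 16.1, 17.7 and 15.1, separate by a narrow margin, with a log2 fold change of 0.34 (SE 0.11, adjusted p 0.0899). Kcnq5, an M-current subunit, measured 129, 102 and 112 CPM in PBS control and 77.8, 76.8 and 101 in PBS acetate mice. Acetate mouse 3 lay just under the lowest control, and the call sat at the threshold (log2 fold change -0.43, SE 0.13, adjusted p 0.09999). The 3 A-type Kcnd pores lay between -0.08 and 0.14, and none was called. Summed over all 35 Kv genes, PBS control mice held 3360 to 3451 CPM and PBS acetate mice 3188 to 3279, which did not overlap. The sums of the K2P genes (246 to 276 against 279 to 293 CPM) and of the auxiliary genes (1725 to 1747 against 1749.7 to 1865 CPM) did not overlap either and were higher in PBS acetate mice, while those of the KCa and Kir genes overlapped. Sums follow the most abundant genes, and Kcnab2, not called, held 1030 to 1039 against 1049 to 1131 CPM of the auxiliary sum. By gene, 17 Kv members lay above 0 and 18 below, 6 K2P members above and 3 below, and 6 auxiliary members on each side.

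Of the KCa class, Kcnt1, the pore of a sodium-activated channel, rose. Its CPM was 24.2, 26.7 and 20.9 in PBS control and 41.7, 34.1 and 27.9 in PBS acetate mice. The acetate mice were widely spread, and mouse 3 was the lowest of them. The log2 fold change was 0.53 (SE 0.16, adjusted p 0.0847). Its close relative Kcnt2 stood at -0.07 (adjusted p 0.711), the BK pore Kcnma1 at -0.08 (adjusted p 0.571), and the small-conductance Kcnn2 at 0.17 (adjusted p 0.248).

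Of the Kir class, the GIRK subunit Kcnj9 rose and the strong rectifier Kcnj2 fell. Kcnj9 CPM was 76.4, 103 and 82.5 in PBS control and 126, 119 and 102 in PBS acetate mice. Control mouse 2 and acetate mouse 3 met near 103, which made Kcnj9 the only called member whose groups overlapped. The log2 fold change was 0.41 (SE 0.12, adjusted p 0.0816). The GIRK subunits it assembles with did not pass the test, at 0.07 for Kcnj3 (adjusted p 0.468) and 0.03 for Kcnj6 (adjusted p 0.876). Kcnj2 CPM was 18.9, 29.6 and 31.5 in PBS control and 16.9, 15.4 and 16.2 in PBS acetate mice. The acetate mice lay close together and below all controls, of which mouse 1 was far lower than the other two. The log2 fold change was -0.72 (SE 0.21, adjusted p 0.0763). The strong rectifiers Kcnj4 and Kcnj12 stood at 0.20 and 0.11, neither called.

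**Figure D3:**
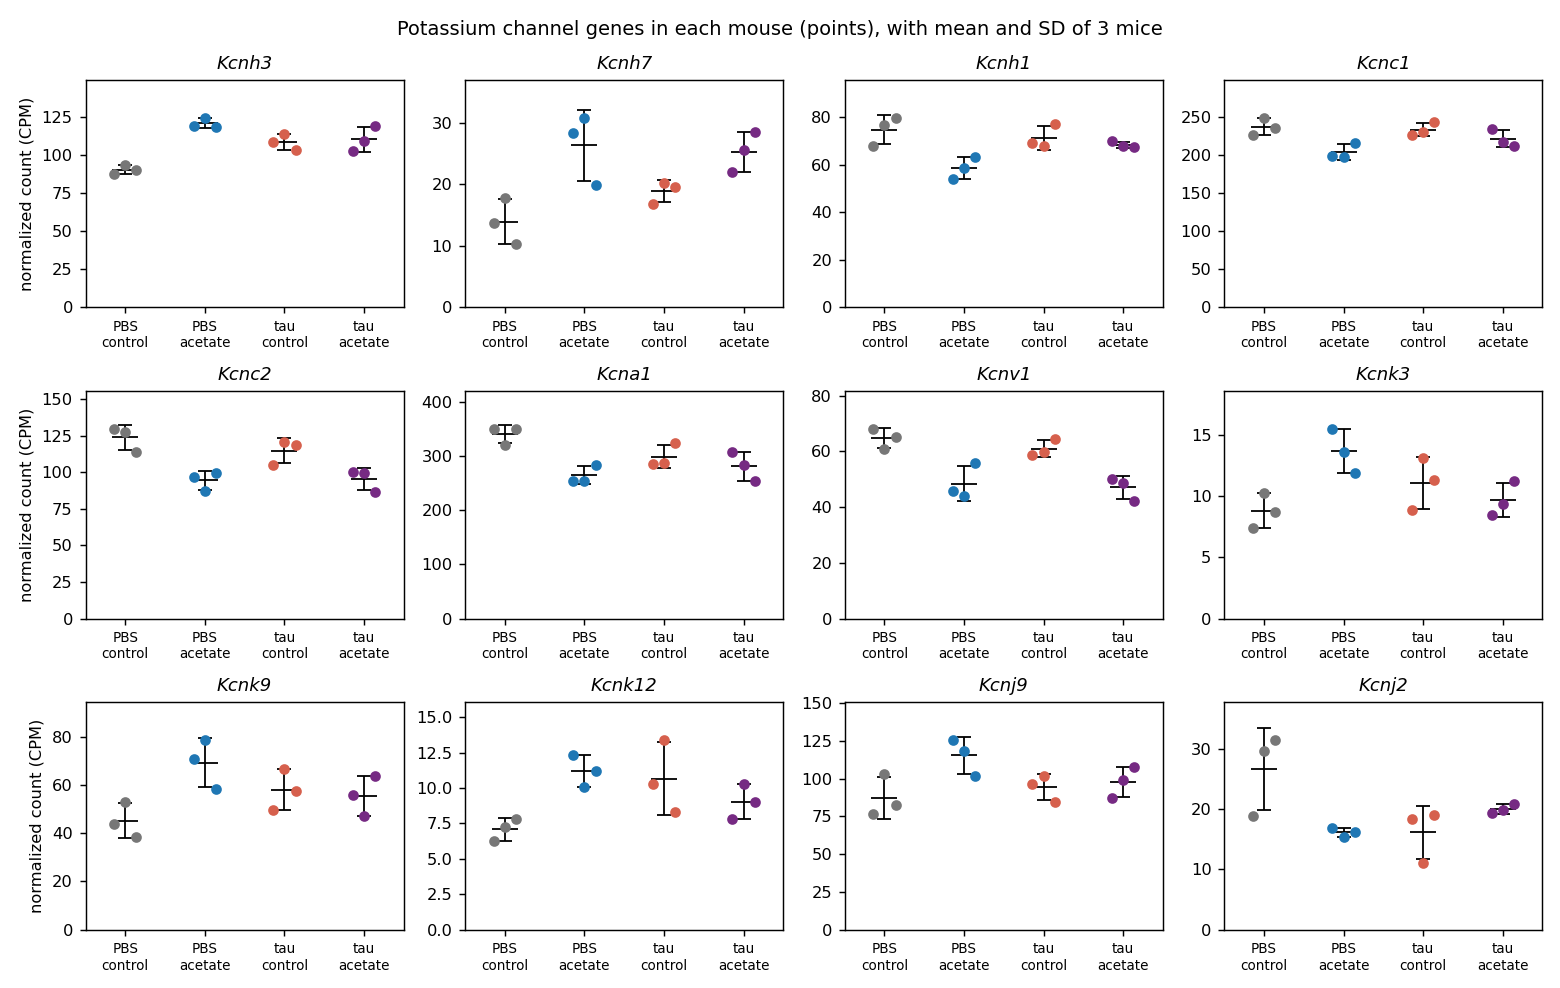
CPM of 12 channel genes in each of the 12 mice (points) by group, with the mean and SD of 3 mice as bars. Kcnh3 runs from 87.2 to 93.4 in PBS control and from 118 to 124 in PBS acetate mice, while Kcnj9 touches near 103 between these groups.

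The K2P genes had the largest median absolute log2 fold change of the classes, 0.62 over 9 genes. The class also ranked first in the tau comparisons (0.27 on the control diet, 0.31 on the acetate diet), where no member was called. The same held for the diet comparison in tau-injected mice (0.20, none called) and the interaction (0.69). With the diet in PBS-injected mice, the acid-sensitive leak channels Kcnk3 and Kcnk9 and the THIK-type subunit Kcnk12 rose, and the mechanically gated Kcnk4 fell. Kcnk3 CPM was 7.39, 10.3 and 8.74 in PBS control and 15.5, 13.6 and 11.9 in PBS acetate mice (log2 fold change 0.64, SE 0.16, adjusted p 0.036). Kcnk9 CPM was 44, 53 and 38.5 against 70.8, 78.6 and 58.3 (log2 fold change 0.62, SE 0.16, adjusted p 0.0623). In both genes every acetate mouse was above every control. Kcnk12 CPM was 6.23, 7.26 and 7.79 against 12.3, 10.1 and 11.2, also separate (log2 fold change 0.66, SE 0.16, adjusted p 0.0373). Kcnk4 CPM was 11.8, 9.5 and 10.8 against 5.62, 5.16 and 9.2 (log2 fold change -0.70, SE 0.20, adjusted p 0.0557). Acetate mouse 3 nearly reached the lowest control, and 13.15% of the exonic length of Kcnk4 is shared with Catsperz on the same strand, so its value is uncertain. Kcnk13, a relative of Kcnk12 known from microglia, had a log2 fold change of -0.64 and missed the threshold (adjusted p 0.106). The 5 microglia markers summed to 251 to 256 CPM in PBS control and 251 to 265 in PBS acetate mice, with 0 called. The abundant leak channels Kcnk1 and Kcnk2 stood at -0.14 and 0.09, with adjusted p of 0.53 and 0.678.

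Among auxiliary subunits, 2 BK beta subunits fell and 1 Kv beta subunit rose. Kcnmb4, the main neuronal BK beta subunit, measured 42.9, 45.9 and 54.6 CPM in PBS control and 37.7, 35.9 and 42.7 in PBS acetate mice. The nearest mice of the groups almost met without overlap, and the log2 fold change was -0.30 (SE 0.10, adjusted p 0.0819). Kcnmb4 shares 20.85% of its exonic length with Kcnmb4os2 on the opposite strand, and counting was stated to use strand. Kcnmb1, the BK beta subunit best known from smooth muscle, was near the filter at 2.15, 1.85 and 1.56 CPM against 0.581, 0.619 and 1.34. It fell by 1.15 on the log2 scale (SE 0.39, adjusted p 0.09999), and kept the call in only 3 of the 12 fits with 1 mouse left out. The 4 mural cell markers summed to 119 to 128 CPM in PBS control and 123 to 141 in PBS acetate mice, with 1 called higher. Kcnab3, a Kv beta subunit, had 19, 21.9 and 22.5 CPM against 30.5, 28.5 and 22.9, with acetate mouse 3 barely above the controls (log2 fold change 0.37, SE 0.11, adjusted p 0.0531). The dominant beta subunits Kcnab1 and Kcnab2 gave 0.26 (adjusted p 0.177) and 0.08 (adjusted p 0.46). All 4 Kcnip genes, partners of the A-type pores, lay between -0.10 and 0.13 with none called. Of the 3 noncoding members none was called.

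A list of 22 proteins that bind, anchor or regulate these channels without a Kcn name was read in the same fit. Of the 20 tested, 0 rose and 1 fell, the secreted Kv regulator Lgi1 (log2 fold change -0.19, SE 0.06, adjusted p 0.0903), and the list's median was -0.06 against 0.00 for all genes. In the other comparisons 0 of the 20 were called.

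Markers of hippocampal fields moved with this comparison. The 6 CA1 markers all lay above 0, 4 were called higher, and they summed to 499 to 652 CPM in PBS control and 788 to 1039 in PBS acetate mice. The 6 CA3 markers all lay below 0, 4 were called lower, and they summed to 400 to 489 against 216 to 352 CPM. The 4 CA2 markers all lay below 0 with none called (252 to 298 against 198 to 276 CPM). The 6 oligodendrocyte markers all lay below 0 with 1 called lower (6869 to 8859 against 4311 to 5933 CPM). Choroid plexus markers, with 1 of 4 called lower, summed to 86.0 to 119 against 64.1 to 80.8 CPM, and thalamus markers, with 0 of 4 called, to 100.1 to 253 against 72.9 to 79.3 CPM. Of 5 astrocyte markers 2 were called higher and 1 lower (1985 to 2066 against 2036 to 2230 CPM). Dentate granule, endothelial and striatum markers had 0 called (422 to 666 against 558 to 667, 122 to 136 against 124 to 130, and 56.4 to 61.2 against 61.1 to 64.7 CPM). Of the 3 general hippocampal neuron markers 2 were called lower (2130 to 2286 against 1792 to 2082 CPM). No marker of any list was at 0 in all mice. The part of these shifts in the channel genes' values was not tested, and in bulk tissue fewer cells of a type and less RNA per cell cannot be told apart.

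**Figure D4:**
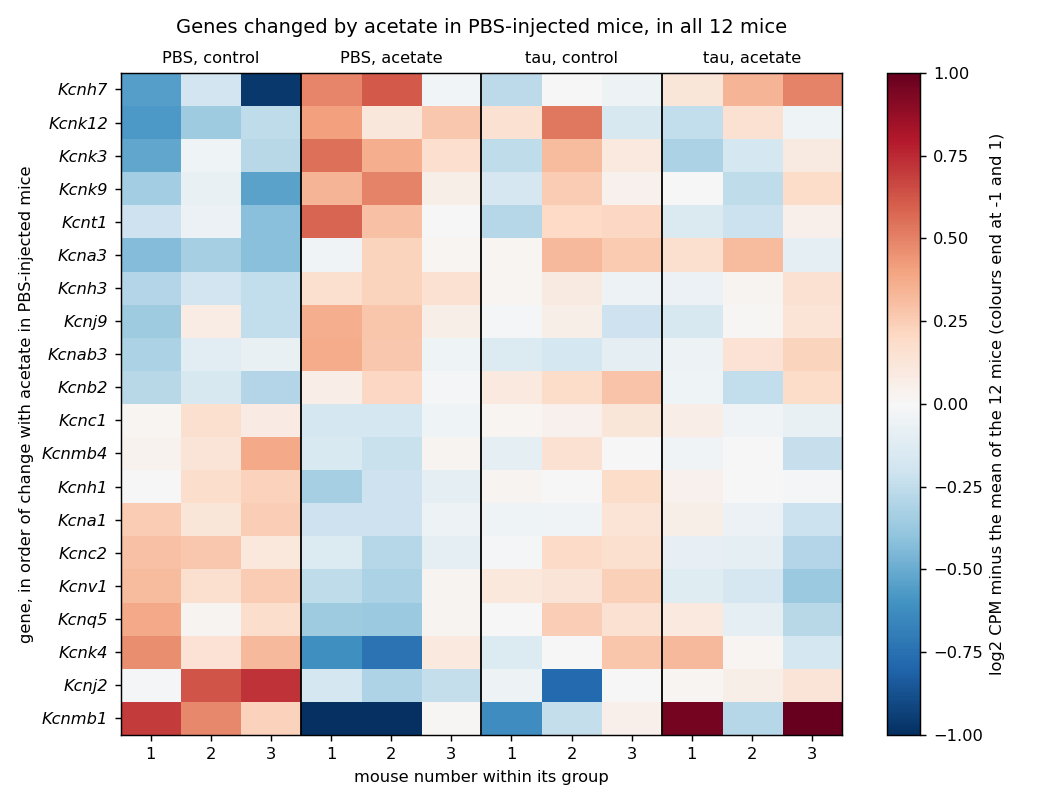
Log2 CPM of the 20 genes called between diets in PBS-injected mice, centred on each gene's mean, in all 12 mice. The genes were chosen for the difference between the PBS columns. PBS acetate mouse 3 is the acetate mouse nearest the controls in every gene but Kcnk12, Kcnj2 and Kcna3.

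Tau against PBS on the control diet called 0 of 74 members, where 0.0136% of all genes (2 of 14742) were called. At an unadjusted p below 0.05 there were 12 members, against 9.65% of all genes, and 10 members (13.5%) did not overlap between groups, as did 13.5% of all genes. The smallest adjusted p was that of Kcnh3, whose CPM was 87.2, 93.4 and 90.1 in PBS control and 108, 114 and 103 in Tau control mice. All Tau control mice were above all PBS control mice, with a log2 fold change of 0.26 (SE 0.06, adjusted p 0.231). Kcnj2 CPM in Tau control mice was 18.4, 11.1 and 19.1, which overlapped PBS control mice through control mouse 1 (log2 fold change -0.72, SE 0.21, adjusted p 0.351). DESeq2 called these 2 genes, Kcnh3 higher (adjusted p 0.0463) and Kcnj2 lower (adjusted p 0.0363), where it called 0.694% of genes. Kcnj9 stood at 0.12 (adjusted p 0.828). The largest change of each class was 0.61 for Kcna3 (adjusted p 0.276), 0.28 for Kcnt1 (adjusted p 0.65), 0.60 for Kcnk12 (adjusted p 0.296) and -0.73 for Kcnmb1 (adjusted p 0.59), with Kcnj2 the largest of the Kir class. The tau comparison on the control diet and the diet comparison in PBS-injected mice share the 3 PBS control mice, so values of the same sign are partly built in. For Kcnk3, Kcnk9 and Kcnb2 the tau values were 0.35, 0.37 and 0.44, none called, beside 0.64, 0.62 and 0.34 for the diet. For Kcnc1, Kcnh1 and Kcnq5 they were -0.02, -0.07 and -0.07, beside -0.22, -0.35 and -0.43 for the diet. In this comparison all 6 CA1 markers lay above 0 and 5 of 6 CA3 markers below 0, with 0 of either called, and CA1 markers summed to 685 to 842 CPM in Tau control mice. All 6 oligodendrocyte markers lay below 0 (median log2 fold change -0.63, 0 called) and summed to 6869 to 8859 CPM in PBS control and 4556 to 5510 in Tau control mice. All 4 CA2 markers lay below 0 and all 4 mural markers above 0, with 0 called, and 3 of 4 thalamus markers lay below 0 (median -0.87, 0 called). Of 6 inhibitory neuron markers 5 lay above 0, with 0 called. They summed to 658 to 700 CPM in PBS control and 746 to 778 in Tau control mice. The part of these shifts in the members' values was not tested.

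Tau against PBS on the acetate diet also called 0 of 74 members, beside 0.136% of all genes. There were 15 members at an unadjusted p below 0.05, against 10.3% of all genes, and DESeq2 called 0, beside 0.804% of genes. The 2 groups did not overlap for 9 members, against 16.2% of all genes. The lowest adjusted p was that of Kcnmb1, at 0.581, 0.619 and 1.34 CPM in PBS acetate and 2.58, 1.09 and 2.7 in Tau acetate mice. Tau acetate mouse 2 lay below the highest PBS acetate mouse, so the groups overlapped (log2 fold change 1.34, SE 0.38, adjusted p 0.21). Kcnh3 stood at -0.13 (adjusted p 0.445), Kcnj9 at -0.24 (adjusted p 0.517) and Kcnj2 at 0.31 (adjusted p 0.655). This comparison and the diet comparison in PBS-injected mice share the 3 PBS acetate mice, so values of opposite sign are partly built in. The silent subunit Kcng4 had the largest Kv value, 0.77 (adjusted p 0.4), and measured 9.52, 11 and 22.2 CPM in Tau acetate mice, where mouse 3 was far above the other two. Of the K2P genes Kcnk13 had the largest value, 0.59 (adjusted p 0.351). All 6 oligodendrocyte (median 0.45), all 6 CA3 (median 0.23) and all 4 choroid plexus markers (median 1.73) lay above 0 in this comparison, as did all 4 thalamus (median 0.37) and all 4 endothelial markers (median 0.12), with 0 called. Microglia markers lay above 0 in 4 of 5 (median 0.23, 0 called). They summed to 251 to 265 CPM in PBS acetate and 271 to 315 in Tau acetate mice. The part of any of these lists in the members' values was not tested.

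Acetate against control diet in tau-injected mice called 0 of 74 members, beside 0.0611% of all genes. At an unadjusted p below 0.05 there were 11 members, against 10.9% of all genes, and 11 did not overlap between groups, against 14.4%. DESeq2 called 4 members lower, with adjusted p of 0.0254 for Kcnv1, 0.0592 for Kcnf1, 0.0766 for Kcnc2 and 0.0909 for Kcnt2, where it called 2.14% of genes with an adjusted p and gave none for 30 members. Kcnv1 CPM was 58.8, 59.8 and 64.5 in Tau control and 50.2, 48.8 and 42.2 in Tau acetate mice, and Kcnc2 CPM was 105, 121 and 119 against 100.0, 99.2 and 86.5. Neither gene's groups overlapped, and edgeR gave log2 fold changes of -0.37 (SE 0.09, adjusted p 0.168) and -0.27 (SE 0.07, adjusted p 0.21). Kcnf1, a silent subunit singled out after its values were seen, had 43.8, 68.6 and 56.7 CPM against 39.6, 40.6 and 38.3 (edgeR log2 fold change -0.51, adjusted p 0.349). The 2 diet comparisons share no mouse. Of the 10 members that rose in PBS-injected mice, 4 had a value above 0 in the tau-injected animals, and the median log2 fold change of the 10 was -0.07. Of the 10 that fell, 7 had a value below 0, with a median of -0.08. Together 11 of the 20 members (55.0%) kept their direction, beside 56.8% of all 74 members. Of all 1303 genes called in PBS-injected mice 65.2% did, 61.6% of those called higher and 68.1% of those called lower. All 6 oligodendrocyte (median 0.53), all 4 choroid plexus (median 0.46) and all 4 endothelial markers (median 0.09) lay above 0 in this diet comparison, with 0 called. So did 5 of 6 CA1 (median 0.13) and 5 of 6 dentate granule markers (median 0.24), while 5 of 6 CA3 markers lay below 0 (median -0.19), again with 0 called. The part of these shifts in the members' values was not tested.

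**Figure D5:**
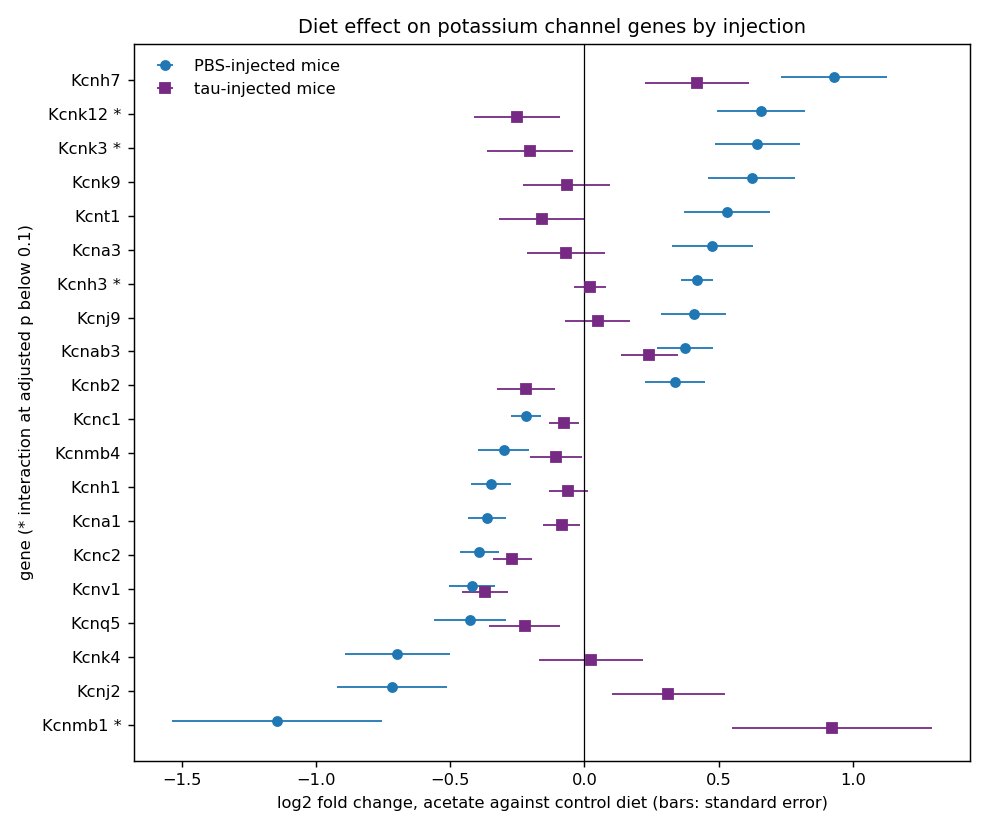
Log2 fold change of acetate against control diet (x axis, bars of 1 SE) in PBS-injected (circles) and tau-injected mice (squares) for the 20 members called in PBS-injected mice, with an asterisk for the 4 called in the interaction. Kcnh3 sits at 0.42 and 0.02, and Kcnmb1 at -1.15 and 0.92.

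Whether the diet effect depended on the injection was tested directly by the interaction term. It passed for 4 of 74 members (5.41%), beside 1.56% of all genes, 1 with a diet effect higher in tau-injected mice (1.11% of all genes) and 3 with a lower one (0.448%). Kcnh3 differed by -0.40 (SE 0.08, adjusted p 0.0511), with CPM of 108, 114 and 103 in Tau control and 102, 109 and 119 in Tau acetate mice, which overlapped. The leak channel Kcnk3 had 8.87, 13.1 and 11.3 CPM in Tau control and 8.47, 9.38 and 11.2 in Tau acetate mice. Its diet effect was -0.20 there against 0.64 in PBS-injected mice, a difference of -0.85 (SE 0.22, adjusted p 0.0913). Kcnk12 had 10.3, 13.4 and 8.32 CPM in Tau control and 7.83, 10.3 and 8.99 in Tau acetate mice, and its diet effects differed by -0.91 (SE 0.23, adjusted p 0.0797). For Kcnmb1 the CPM was 0.865, 1.13 and 1.37 in Tau control mice against 2.58, 1.09 and 2.7 in Tau acetate mice, and the difference was 2.07 (SE 0.54, adjusted p 0.0885). In all 4 genes the tau-injected diet groups overlapped while the PBS-injected ones did not. All 4 were also called between diets in PBS-injected mice, so this pattern follows in part from their selection. The share of all genes called is not given for fits with a mouse left out. Moves of the count therefore cannot be read as particular to the channel genes. The count rested on single mice as well. It was 0 without PBS acetate mouse 2, Tau control mouse 2 or Tau acetate mouse 1, 2 without any one of the 3 PBS control mice, PBS acetate mouse 1 or Tau control mouse 1, and 7 without Tau acetate mouse 3. At an adjusted p below 0.05 it was 0, with 19 members at an unadjusted p below 0.05 against 13.0% of all genes, and DESeq2 called 8, beside 2.84% of genes. Neither Kcnj2 (1.03, adjusted p 0.158) nor Kcnj9 (-0.36, adjusted p 0.409) passed. Marker lists moved with the interaction as well. All 6 oligodendrocyte markers lay above 0 with a median of 1.07, all 6 CA3 markers above 0 with a median of 0.49, and 5 of 6 CA1 markers below 0 with a median of -0.56. All 4 CA2 markers lay above 0 (median 0.42) and all 4 mural markers below 0 (median -0.34), and 3 of 4 choroid plexus and 3 of 4 thalamus markers lay above 0 (medians 1.49 and 1.01). Inhibitory neuron markers lay below 0 in 5 of 6 (median -0.14). Of all lists, 1 of 5 astrocyte and 1 of 4 choroid plexus markers were called, both higher, and 0 in the others. Their part in the 4 members' values was not tested.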

How the data were processed

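Poly(A) RNA libraries from the right dorsal hippocampus of 12 mice, 3 per group, were used, with groups and mouse numbers taken from the sample titles. The authors deposited raw read counts per gene, 1 column per mouse and 24985 genes. Per the labels and methods, reads were aligned with STAR 2.5.2a to GRCm38 and counted with HTSeq 0.9.1 as reverse-stranded. No column of samples was left unused (0). Replicates are mice, and p-values measure the spread between them.

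Members and gene lists were chosen with earlier results of these data known. Genes were filtered with filterByExpr (minimum count 10, minimum total 15), which left 14742, and normalized by TMM in edgeR 4.0.16 (R 4.3.3). The robust quasi-likelihood test was fitted with 1 mean per group over all 12 mice (8 residual degrees of freedom), with Benjamini-Hochberg adjustment across the whole table. A gene was called at an adjusted p below 0.1, and only called genes are said to rise or fall. SEs come from the F statistic and the log2 fold change. CPM use TMM library sizes. At 12983233 to 20218340 counts per mouse, counting noise weighs more on genes near the filter than on abundant ones. Its share against the spread between mice was not measured by level.

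Named were members called in any of the 5 comparisons, Kcnh3, Kcnj9 and Kcnj2, the 3 highest by CPM per kb and the largest change in each subfamily, and those nearest the count limit. Relatives of called genes were added after values were seen. A few members of this rule are not reported here. The marker lists of hippocampal fields and cell types and the list of channel partners are reported by counts and summed CPM. Exonic lengths and overlaps came from GENCODE M21 on GRCm38, which matched 24534 of 24985 symbols by name. Promoter windows were from RefSeq. Alternatives were DESeq2 1.42.0 on all mice and on the mice compared, its size factors in edgeR, no filter, edgeR on the mice compared, an adjusted p below 0.05, a replicate block and leaving out each mouse. The functions were tested on simulated data.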

Additional observations from a re-analysis of the deposited data

Results flagged for a closer look

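For 4 channel genes the diet effect differed between PBS-injected and tau-injected mice by a test of the difference itself, the interaction of diet and injection in edgeR. Kcnh3, the Elk-type Kv pore, had a diet effect lower in tau-injected mice by a log2 difference of -0.40 (adjusted p 0.0511). The leak channel Kcnk3 differed by -0.85 (adjusted p 0.0913) and the THIK-type Kcnk12 by -0.91 (adjusted p 0.0797). Kcnmb1, a BK beta subunit, differed in the other direction by 2.07 (adjusted p 0.0885), at a level between 0.58 and 2.70 CPM over all mice. Leaving out each mouse in turn kept the call of Kcnh3 in 9 of 12 fits, that of Kcnk12 and of Kcnk3 in 4 each, and that of Kcnmb1 in 3.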

How the results depend on the processing

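Counts of called members, with the main count first, moved as follows. The diet comparison in PBS-injected mice gave 20 and, at an adjusted p below 0.05, 9, and leaving out each mouse in turn gave 1 to 22: 9 without PBS control mouse 1, 6 without PBS control mouse 3, 6 without PBS acetate mouse 1 and 1 without PBS acetate mouse 2. It was 15 to 22 under the other settings, and DESeq2 called 20, 17 of them shared. The interaction gave 4, then 8 with DESeq2, 0 at an adjusted p below 0.05, and 0 to 7 leaving out each mouse. The same diet comparison in tau-injected mice gave 0, then 1 without the filter (56 of all genes), 4 with DESeq2 on all mice, 2 with DESeq2 on the mice compared, and 0 to 1 leaving out each mouse (1 without PBS acetate mouse 3). Tau against PBS on the control diet gave 0, then 2 with DESeq2 on all mice, 1 on the mice compared, and 0 to 1 leaving out each mouse (1 without PBS control mouse 1). On the acetate diet it gave 0, and 0 to 1 leaving out each mouse (1 without Tau acetate mouse 2). The share of all genes called is not given for most of these settings, so the moves cannot be read as particular to the channel genes. The causes of these moves were not tested. Same-numbered mice did not deviate together (r from -0.11 to 0.14, 2 of 18 pairs over 0.1), so the replicate block is given once: it called 20 and 5 members for acetate in PBS-injected mice and the interaction, and 0 in the other comparisons. Of 448 alternative values of single called genes, 308 stayed past the threshold, 140 kept their direction without passing it, and 0 reversed. Low-level members such as Kcnmb1, Kcne4 and Kcnh6 are limited by depth.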
